A study of Mus musculus with 7 samples.

Results

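The control libraries described here hold the transcriptome of sorted cells of the *Tis21* lineage in embryonic mouse neocortex, and were chosen by title alone, as the samples named Control. They are 3 libraries (replicates 1, 2 and 4, called control 1, 2 and 4) among the 7 of the series, and the other 4 libraries, from cells given a Sox9 construct, enter no value. All cells came from heterozygous *Tis21*-CreERT2 embryos, which carry a tamoxifen-activated Cre recombinase in place of exon 1 of a *Tis21* allele, and the pregnant mothers received tamoxifen by gavage. The control construct, a plasmid with a floxed membrane-GFP cassette ahead of nuclear RFP under a CAGGS promoter, was introduced by in utero electroporation at E13.5. Cre removes the GFP cassette, so that RFP marks electroporated cells in which *Tis21* was active and also their progeny. The dorsolateral cortices were collected 48 hr later, at E15.5, and the cells with high RFP fluorescence were sorted. The methods describe each sort as a pool of several embryos, whereas the legends give each library as 1 neocortex, and the labels number the libraries as biological replicates. The SD over the 3 libraries is therefore the spread between sorts, and with 1 group no test was made.

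*Tis21* (gene symbol *Btg2*) is an antiproliferative gene that is switched on in progenitors about to produce neurons. In the embryonic neocortex, apical radial glia line the ventricle and express *Pax6* and *Sox9*. They produce basal progenitors, most of which are intermediate progenitors expressing *Eomes* (which encodes Tbr2), which divide to give neurons that switch on *Neurod6*, *Tubb3* and, in deep layers, *Tbr1*. The labels call the sorted cells primary neural progenitors. RFP stays in a cell after it has left the progenitor state, so the sort can hold both progenitors and their neuronal progeny. In such bulk libraries, fewer cells of a type and less RNA per cell cannot be told apart.

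The 3 libraries had 11592511, 12907778 and 10465562 counts on genes, and 23791, 23387 and 23779 genes with at least 1 count. Levels are given in TPM (transcripts scaled to a common total per library), computed here from the deposited counts and the exonic length of each gene, so that genes of different length can be compared. Of 21173 protein-coding genes in the count table, 10897 (51.5%) reached 1 TPM in every library and are called detected. A further 2195 genes had no count in any control library, and 5329, these included, had at most 3 counts in every library. Neither group can be called unexpressed, since a count of 0 allows up to 3 counts at these depths. Intervals and floors of this kind cover counting error only, because reads were amplified by PCR without molecular identifiers.

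The transcriptome of the control cells was concentrated in few genes, to the same degree in each library. The 10 highest protein-coding genes held 14.9%, 14.8% and 14.7% of protein-coding TPM in control 1, 2 and 4. The highest 100 held 33.0% ± 0.191 (SD, n = 3) and the highest 1000 held 68.3% ± 0.288 (SD, n = 3). By level, 103 genes (0.486%) had a mean of 1000 TPM or more, and 1616 genes (7.63%) lay between 100 and 1000 TPM and held 44.8% of the TPM. Another 5144 genes lay between 10 and 100 TPM, 5068 between 1 and 10 TPM, and 7047 under 1 TPM, the last holding 0.250% of the TPM. The median protein-coding gene had 1.86 TPM.

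The 20 highest protein-coding genes had means from 3830.5 TPM upwards. *Actb*, which encodes cytoplasmic beta-actin, was first with 49100.4, 55048 and 53537 TPM. *Tuba1a*, the main alpha-tubulin of developing neurons, was second with 17794 ± 1755 TPM (SD, n = 3). *Tmsb4x*, which encodes the actin-sequestering thymosin beta 4, followed with 12641 ± 1217 TPM. *Dpysl2*, whose product CRMP2 binds tubulin in growing axons, came next with 12347 ± 983 TPM. The fifth place was that of *Tubb3*, the neuronal class III beta-tubulin. *Tubb5*, another beta-tubulin, had 8041 ± 164 TPM, and *Neurod6*, a bHLH transcription factor of postmitotic cortical neurons, was seventh. From the third to the fifth gene, neighbours in the ranking lay within 1 SD of each other.

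The remaining genes among the 20 highest had general cell functions for the most part. They were the ubiquitin gene *Ubb* (6501 ± 329 TPM), the G protein subunit *Gnb1* (6429 ± 500 TPM), *Selenow* (5377 ± 388 TPM), the prothymosin gene *Ptma* (5184 ± 266 TPM) and the 14-3-3 gene *Ywhae* (5015 ± 167 TPM). *Jpt1* (4478 ± 376 TPM), *Mn1* (4327 ± 524 TPM), the histone gene *H3f3b* (4277 ± 331 TPM), the chaperone *Hsp90ab1* (4012 ± 58.8 TPM) and the calmodulin gene *Calm2* (3830 ± 337 TPM) were also among them. The mitochondrially encoded *mt-Cytb* (5144 ± 1062 TPM) and *mt-Nd1* (4967 ± 921 TPM) varied more between libraries. *Gm10800* (3972 ± 1110 TPM) is a gene model of repeated sequence that shares reads with near-identical copies, so its level is uncertain. Cytosolic ribosomal proteins had 82 of 85 members detected, a median of 425 TPM and 5.62% ± 0.306 of all TPM (SD, n = 3), with *Rpl32* (3317 ± 353 TPM) the highest. The 10 housekeeping genes were all detected, led after *Actb* by the elongation factor *Eef1a1* (3786 ± 287 TPM).

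The label of the sort names progenitors. Neuronal genes such as *Tubb3* and *Neurod6* were among the highest, far above the progenitor factors *Eomes*, *Pax6* and *Neurog2*. Levels of different genes do not measure shares of cells. The radial glia gene *Fabp7* (1065 TPM) was above the neuronal gene *Dcx* (146 TPM), and the neuronal factor *Tbr1* (12.9 TPM) was below *Eomes* (28.3 TPM). *Tubb3* (ENSMUSG00000062380, GRCm38 chr8:123411424-123422015, plus strand) had 13427, 10413 and 12285 TPM in control 1, 2 and 4, with 83984, 72308 and 71243 counts. *Neurod6* (ENSMUSG00000037984) had 7304, 5918 and 6368 TPM. By mean level they held ranks 5 and 7 of the 21173 protein-coding genes, and both were highest in control 1 and lowest in control 2.

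The 4 other markers chosen for these cells were at 12.9 to 28.3 TPM. *Eomes*, the T-box factor of intermediate progenitors, had 19.0, 32.0 and 33.9 TPM in control 1, 2 and 4 (264, 494 and 437 counts), rank 4306. *Pax6*, the homeobox factor of radial glia, had 11.0, 24.2 and 19.6 TPM (432, 1053 and 713 counts), rank 5386. *Eomes* was above *Pax6* in each library, and control 1 was lowest for both.

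*Neurog2*, the proneural factor that commits progenitors to neurogenesis, had 11.9, 11.8 and 18.2 TPM (89, 98 and 126 counts), rank 6048. *Tbr1*, a T-box factor of deep-layer and early-born neurons, had 14.2, 12.1 and 12.5 TPM (261, 247 and 213 counts), rank 6235. The values of *Pax6* overlapped those of *Neurog2*, and those of *Neurog2* overlapped those of *Tbr1*, so the order of these 3 genes was within the spread between libraries. The place of *Pax6* also depended on the length assigned to it: with the longest annotated transcript in place of all exonic bases it had 35.9 TPM and *Eomes* 24.5 TPM.

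*Btg2* (ENSMUSG00000020423), the gene whose locus drives the Cre recombinase and which lacks exon 1 on the CreERT2 allele, had 104, 103 and 119 TPM (954, 1046 and 1013 counts), rank 1594. These 3 values lay close together, with a coefficient of variation (CV, the SD over the mean) of 6.54% on normalized counts. Counts per gene do not separate the intact allele from transcripts of the altered locus. *Sox9*, a transcription factor of radial glia and later of glia, had 26.1, 66.7 and 52.0 TPM, rank 3080, with the same order of libraries as *Pax6*.

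The promoter sequence just ahead of the start site is shown for the genes that define the 2 ends of this lineage in these libraries, the tubulin and *Neurod6* genes of neurons and the *Btg2*, *Eomes*, *Neurog2* and *Pax6* genes of progenitors. Each line gives the 100 bases upstream of the RefSeq start on GRCm38.p6, read 5′ to 3′ along the gene, with capitals for a match on either strand to the GC box letters GGGCGG or the CCAAT box letters CCAAT.
Tuba1a, chr15:98953502-98953601, minus strand: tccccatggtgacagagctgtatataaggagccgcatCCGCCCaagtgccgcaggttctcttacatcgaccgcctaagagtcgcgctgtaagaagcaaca
Tubb3, chr8:123411453-123411552, plus strand: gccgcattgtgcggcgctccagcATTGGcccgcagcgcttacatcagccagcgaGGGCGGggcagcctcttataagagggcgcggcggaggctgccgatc
Neurod6, chr6:55681264-55681363, minus strand: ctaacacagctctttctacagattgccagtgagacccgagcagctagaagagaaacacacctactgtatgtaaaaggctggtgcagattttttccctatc
Btg2, chr1:134079156-134079255, minus strand: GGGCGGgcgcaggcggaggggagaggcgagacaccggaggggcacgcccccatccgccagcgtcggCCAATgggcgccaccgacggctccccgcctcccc
Eomes, chr9:118478089-118478188, plus strand: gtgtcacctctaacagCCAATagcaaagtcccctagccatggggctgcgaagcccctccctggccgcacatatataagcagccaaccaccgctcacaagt
Neurog2, chr3:127633036-127633135, plus strand: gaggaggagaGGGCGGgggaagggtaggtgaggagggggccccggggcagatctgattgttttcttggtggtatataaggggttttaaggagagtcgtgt
Pax6, chr2:105668796-105668895, plus strand: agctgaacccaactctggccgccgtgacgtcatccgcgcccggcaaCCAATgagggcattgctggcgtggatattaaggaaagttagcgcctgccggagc
In windows of this length, GGGCGG was found in 34.8% and CCAAT in 20.6% of 19799 RefSeq windows, counting both strands. The 100 bases of *Btg2* held 13 CpG dinucleotides and a GC content of 80%, whereas those of *Neurod6* held 1 CpG at 45%, and neither motif. The RefSeq starts of *Tuba1a* and *Tubb3* lie 202 and 129 bases inside the GENCODE gene models, so for these genes the printed bases are within the annotated gene of that release. No measurement of binding or chromatin was made, and a match is a description of the letters only.

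**Figure D1:**
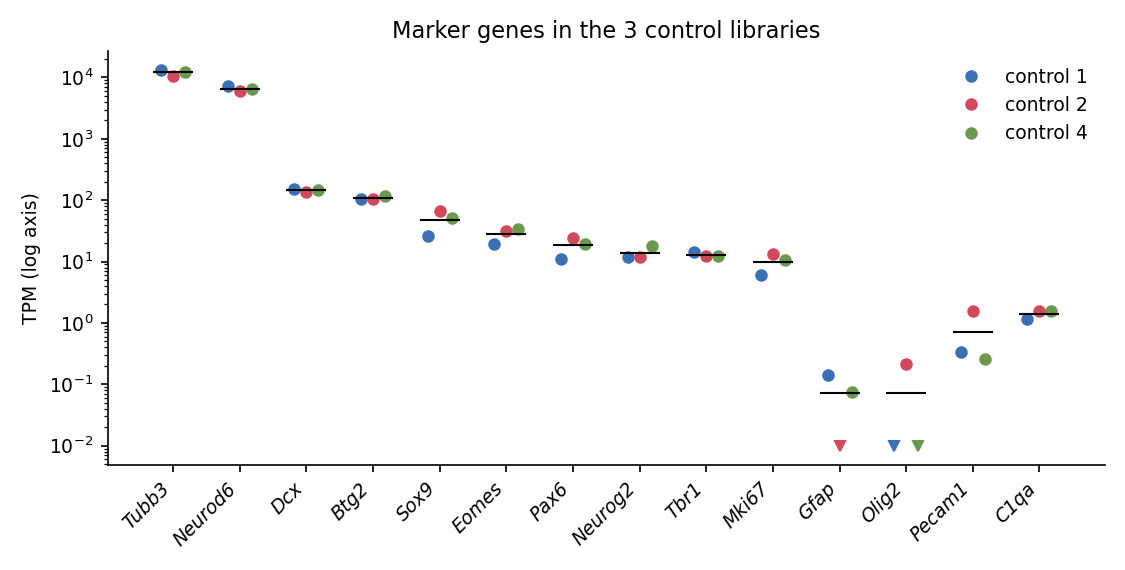
Level of marker genes in the 3 control libraries, in TPM on a log axis, with 1 point per library and a bar at the mean. Triangles at the foot of the plot stand for a library without a count. *Tubb3* and *Neurod6* lie far above *Eomes*, *Pax6*, *Neurog2* and *Tbr1*, which lie between 11.0 and 33.9 TPM, and the markers of glia, vessels and microglia at the right lie lowest.

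Among gene lists written for each cell state, the pan-neuronal, newborn neuron and upper-layer lists had higher medians than the progenitor lists. The deep-layer list had a lower median (12.9 TPM). Of 18 pan-neuronal genes, which serve the cytoskeleton, RNA processing and synapses of neurons, all 18 were detected, with a median of 199 TPM. After *Tubb3*, the highest were the stathmin family gene *Stmn3* (1172 ± 254 TPM), the growth-cone gene *Gap43* (828 ± 211 TPM) and *Dpysl3* of the collapsin response mediator family. *Dcx*, the microtubule-binding doublecortin of migrating neurons, had 153, 137 and 148 TPM. *Rbfox3* (NeuN, a splicing factor of maturing neurons) was lower at 21.2 ± 2.43 TPM, and the neurofilament gene *Nefl* was lowest at 14.3 TPM, although 32.8% of its exonic length overlaps exons of another gene.

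Of 12 genes of newborn and migrating neurons, 11 were detected, with a median of 132 TPM and only *Nhlh2* below the limit. *Neurod6* was followed by the adhesion molecule *Cntn2* (326 ± 74.4 TPM), the semaphorin receptor *Nrp1* (312 ± 36.6 TPM) and the migration GTPase *Rnd2* (310 ± 6.94 TPM). *Neurod2* had 245 ± 26.1 TPM and *Neurod1* 231 ± 69.2 TPM. The bHLH factors of this list thus spanned a range in which *Neurod6* was far above its relatives in each library.

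Of 14 genes of intermediate progenitors, 12 were detected, with a median of 45.1 TPM. The highest were the transcriptional corepressor *Cbfa2t2* (419 ± 91.5 TPM), the somatostatin receptor *Sstr2* (249 ± 6.13 TPM) and *Mfng*, a modifier of Notch receptors (140 ± 27.2 TPM). *Insm1*, a zinc-finger factor that promotes the formation of basal progenitors, had 33.4 ± 1.24 TPM. *Neurog1* and the Notch ligand *Dll3* were the members not detected. *Sstr2* and *Insm1* varied little between libraries, whereas *Eomes* of the same list was lower in control 1.

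All 20 radial glia genes were detected, with a median of 36.3 TPM. *Fabp7*, the brain lipid-binding protein of radial glia, was highest with 626, 1384 and 1184 TPM in control 1, 2 and 4. *Aldoc*, a glycolytic enzyme of radial glia and astrocytes, had 118, 289 and 254 TPM, and the homeobox gene *Lhx2* had 71.0, 101 and 97.4 TPM. Control 1 was the lowest library for each of these genes. *Sox2*, a core factor of neural stem cells, had 4.21, 16.3 and 8.61 TPM, from 29, 125 and 55 counts.

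The ratio of list medians put these lists on one scale within each library. The pan-neuronal median was 4.27, 4.00 and 4.93 times the intermediate progenitor median in control 1, 2 and 4, a mean log2 ratio of 2.13 ± 0.15 (SD, n = 3). The intermediate progenitor median was 2.88, 1.11 and 0.907 times that of radial glia (log2 ratio 0.51 ± 0.89). The first ratio was above 1 in every library, whereas the second lay on both sides of 1 and rested on control 1, without which its log2 value was 0.0082. On the log2 scale the first ratio was 1.28 when only members with a mean of at least 10 counts were used, and it turned in sign (-0.60) with the deposited FPKM, which are scaled by gene span and not by exonic length. The median of newborn neuron genes was 0.504, 0.834 and 0.575 times the pan-neuronal median.

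**Figure D2:**
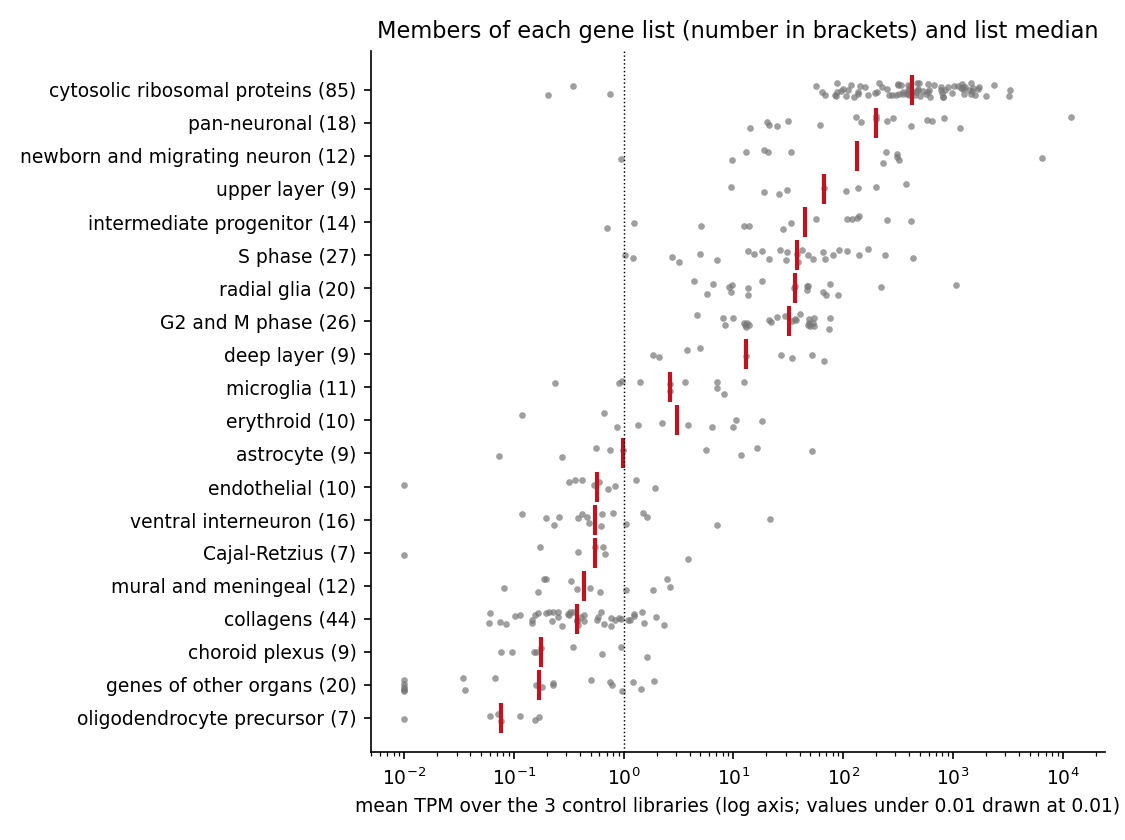
Mean TPM over the 3 control libraries for each member of 20 gene lists (points, log axis) and the list median (red bar), with the number of members in brackets and a dotted line at 1 TPM. Ribosomal protein, pan-neuronal and newborn neuron lists lie highest. Progenitor and cell cycle lists have medians from 31.9 to 45.1 TPM, and lists of vessels, choroid plexus and oligodendrocyte precursors lie under 1 TPM.

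The list of upper-layer genes had a higher median than that of deep-layer genes. All 9 upper-layer genes were detected, with a median of 67.0 TPM, among them the POU factor *Pou3f2* (372 ± 54.3 TPM) and the homeobox gene *Cux2* (136 ± 35.0 TPM). Of 9 deep-layer genes, 8 were detected, with a median of 12.9 TPM, led by *Ldb2* (67.0 ± 36.9 TPM), *Sox5* (51.7 ± 24.1 TPM) and *Fezf2*, the selector gene of subcerebral neurons (34.5 ± 23.4 TPM). The ratio of the medians was 3.92, 6.06 and 5.76 in control 1, 2 and 4, a log2 ratio of 2.37 ± 0.34 (SD, n = 3). Since the sort can hold progenitors as well as neurons, this ratio does not give the share of neurons of each layer.

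Control 1 was the highest library for 7 of the 9 deep-layer genes, against 34.6% of all protein-coding genes with enough counts. *Fezf2* had 61.5, 22.2 and 19.9 TPM and *Bcl11b* (Ctip2, a zinc-finger factor of subcerebral neurons) had 45.3, 19.3 and 17.0 TPM. *Sox5*, which times the production of deep-layer neurons, had 79.5, 37.0 and 38.7 TPM. *Ldb2* had 110, 44.0 and 47.4 TPM. For these 4 genes control 2 and control 4 were close together and control 1 was above both. *Tbr1*, also on this list, did not share that pattern to the same degree, and *Crym* had 41, 2 and 26 counts.

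All 34 transcription factors of the dorsal telencephalon on a fixed list were detected, with a median of 58.9 TPM. After *Neurod6*, the highest were *Id2*, an inhibitor of bHLH factors (1890.3 ± 439 TPM), and the nuclear factor I genes *Nfia* (825 ± 143 TPM) and *Nfib* (584 ± 37.7 TPM). *Emx1*, a homeobox gene of the dorsal telencephalon, had 22.8 ± 1.08 TPM. *Sox11*, a factor of immature neurons, had only 72, 61 and 58 counts and was the lowest of the list with 2.27 TPM.

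The control cells had transcripts of the cell cycle. Of 27 S-phase genes 25 were detected (median 38.0 TPM), and all 26 genes of G2 and M phase were detected (median 31.9 TPM). *Rrm2*, a subunit of ribonucleotide reductase, had 308, 549 and 452 TPM, and the replicative helicase subunit *Mcm7* had 207, 290.2 and 231 TPM. For mitosis, the cyclin *Ccnb2* had 53.1, 111 and 65.9 TPM and the topoisomerase *Top2a* had 53.3, 102 and 68.8 TPM. *Mki67*, the gene of the Ki67 antigen, had 6.03, 13.3 and 10.7 TPM. For all 5 genes control 1 was lowest and control 2 highest. *Nusap1*, a spindle protein gene, had the same order with 32.2, 79.9 and 52.1 TPM.

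Of 8 D cyclins and CDK inhibitors, which push cells past or hold them before S phase, 7 were detected and 2 inhibitors were highest. *Cdkn1b* (p27Kip1) had 289 ± 34.6 TPM and *Cdkn2d* (p19Ink4d) 259 ± 17.9 TPM. *Cdkn1c* (p57Kip2) had 55.6 ± 7.20 TPM. Of the D cyclins, *Ccnd2* had 133 ± 30.0 TPM, *Ccnd1* 5.09 ± 0.493 TPM and *Ccnd3* was not detected in every library. The spread of *Ccnd2* between libraries followed that of the mitotic genes, with 104, 164 and 131 TPM.

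The Notch pathway, through which progenitors keep each other undifferentiated, was represented by 12 detected genes of 15, with a median of 12.6 TPM. The receptor *Notch2* (20.9, 50.8 and 37.7 TPM) was the highest member and *Notch1* was lower at 6.57 TPM. *Numb*, an inhibitor of Notch signalling, had 24.8 ± 7.63 TPM and *Rbpj*, the DNA-binding partner of the Notch intracellular domain, had 18.3 ± 1.15 TPM. The effector *Hes1* had 13.6 TPM with *Hes5* close to it, and the ligand *Dll1* had 12.4 TPM. The level of *Hes5* is uncertain, since it overlaps another gene. *Hes1* ranged from 5.57 TPM in control 1 to 20.9 TPM in control 2.

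Of the genes of the extracellular matrix, a main subject of the study, collagens and laminins were examined as lists, together with the integrins that bind them. Of 44 collagens 3 were detected (*Col4a1*, *Col11a1* and *Col5a2*), with a median of 0.376 TPM over the list, and the highest mean was that of *Col9a3* with 2.34 TPM. Of 11 laminin chains 2 were detected, *Lamb1* with 19.5, 19.7 and 21.4 TPM and *Lamc1* with 4.37, 4.72 and 4.75 TPM. The alpha chain *Lama1* had 1.29 TPM and was not above 1 TPM in every library. Of 27 integrins, the matrix receptors, 7 were detected, led by the common subunit *Itgb1* with 31.2, 32.8 and 31.6 TPM and the laminin-binding subunits *Itga6* (4.21 ± 0.549 TPM) and *Itga3* (2.57 ± 0.369 TPM). Shares of detected genes in these lists were 6.82%, 18.2% and 25.9%, against 51.5% of all protein-coding genes. These lists do not cover all of the matrix, and the proteoglycan *Ncan*, named after its values were seen, had 2127 ± 377 TPM (rank 35).

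Markers of other cells that the cortex can hold were also examined, against the 51.5% of all protein-coding genes that were detected. As a scale for what low values mean, 1372 chemoreceptor genes, which serve smell and taste, had a median of 0.0232 TPM and a 95th percentile of 0.549 TPM, and 12 of them (0.875%) were detected. Of 20 genes of other organs, 2 were detected (*Apoa1* and *Pnliprp1*) and 11 had at most 3 counts in every library. Levels under about 1 TPM were therefore also found for genes that cortical cells are not known to use.

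Oligodendrocyte precursor markers were at the floor. None of the 7 genes in the table was detected and 6 had at most 3 counts in every library. *Olig2*, a bHLH factor of the lineage, had 0, 2 and 0 counts, *Sox10* had 1, 3 and 1, and the growth factor receptor *Pdgfra* had 3, 1 and 2. *Nkx2-2* had no count. Of 9 astrocyte genes 4 were detected, *Sparcl1* (52.2 TPM), *Acsbg1* (16.3 TPM), *Aldh1l1* (11.7 TPM) and *Gja1*, while the defining genes *Gfap* (2, 0 and 1 counts), *Aqp4* (2, 12 and 4 counts) and *S100b* (1, 1 and 6 counts) were not. *Gja1* and *Aldh1l1* are also used by radial glia.

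Ventral interneuron genes were also low, with 2 of 16 detected. These were *Sp8* (21.7 ± 5.21 TPM), a zinc-finger factor that dorsal progenitors use too, and the neuropeptide gene *Npy* (7.07 ± 2.03 TPM). The GABA-synthesizing enzyme *Gad1* had 10, 5 and 3 counts and the homeobox gene *Dlx6* had 1, 2 and 0. *Sst*, the somatostatin gene, had counts in control 2 alone (0, 13 and 0). Of 7 Cajal-Retzius genes only *Calb2* (3.88 TPM) was detected, and *Reln*, the secreted guidance protein of these cells, had 0.675 TPM.

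Endothelial, mural and choroid plexus lists had medians of 0.565, 0.433 and 0.177 TPM, with 1 of 10, 1 of 12 and 0 of 9 members detected. The endothelial genes *Pecam1* (7, 36 and 5 counts) and *Cdh5* (1, 23 and 1 counts) were highest in control 2, and the summed TPM of the endothelial list was 4.32, 12.1 and 4.57. *Rgs5*, of pericytes, was the detected mural gene, and *Kcnj13* was the highest choroid plexus gene with 1.65 TPM, of which 49.1% of the exonic length overlaps another gene. *Ttr*, the defining transcript of choroid plexus, had 1, 6 and 1 counts.

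Microglia and erythroid genes had values that differed between the libraries. The median of the microglia list was 1.34, 4.54 and 2.57 TPM in control 1, 2 and 4, and that of the erythroid list was 0.455, 1.27 and 3.62 TPM. Of 11 microglia genes 7 were detected (63.6%, above the share of all protein-coding genes), among them the complement gene *C1qb* with 4.67, 21.8 and 11.3 TPM (17, 88 and 38 counts) and the purinergic receptor *P2ry12* with 22, 90 and 72 counts. The signalling adaptor *Tyrobp* had 3, 42 and 13 counts. The summed TPM of the microglia list was 19.0, 75.6 and 47.3. Of 10 erythroid genes 2 were detected, and their summed TPM was 6.04, 97.9 and 58.0. Adult beta-globin *Hbb-bs* had 5, 138 and 11 counts, whereas embryonic *Hbb-y* had 0, 2 and 60 counts. Control 1 was lowest for both lists.

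Replicates varied by 12.6% at the median. This is the median CV of normalized counts over the 9456 protein-coding genes whose mean reached 50 normalized counts, with quartiles of 7.40% and 20.6%. Of these genes, 73.4% had a CV under 20% and 164 had a CV over 50%. The spread depended on depth, from a median of 22.9% at 50 to 100 counts, where counting error alone gives 11.7%, to 7.48% at 3000 counts and over, where it gives 1.44%. In 1013 genes (10.7%) the spread was no larger than counting error. The common biological coefficient of variation of edgeR, which leaves counting error out, was 17.6%.

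**Figure D3:**
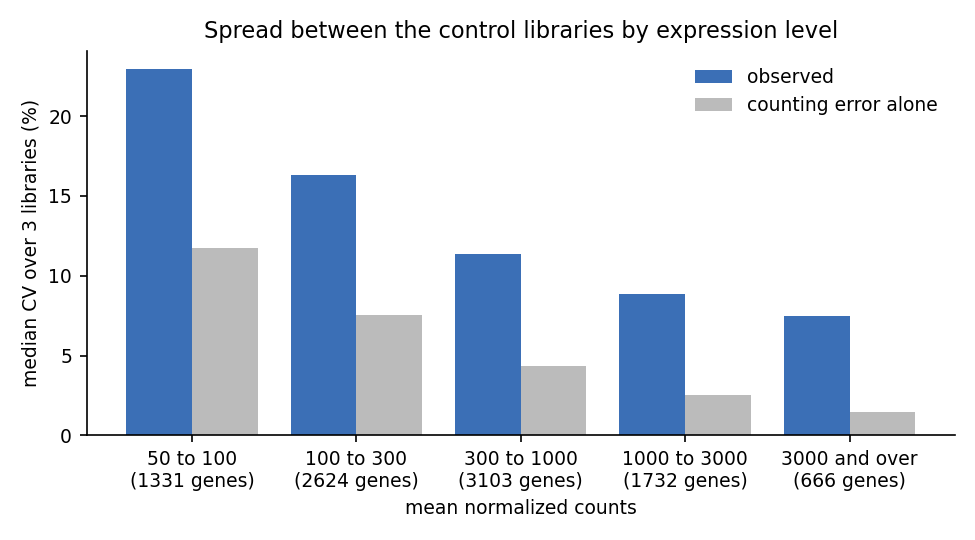
Median CV over the 3 control libraries (blue) and the CV that counting error alone would give (grey), in percent, by mean normalized count with the number of genes in brackets. The observed CV is 22.9% in the lowest class and 7.48% in the highest, and above counting error in each class.

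Control 2 and 4 were the closest pair of libraries by Jensen-Shannon distance and by the number of genes over 2-fold apart. Over all protein-coding genes the Jensen-Shannon distance of TPM (base 2) was 0.0888 between control 1 and 2, 0.0827 between control 1 and 4 and 0.0759 between control 2 and 4. Spearman's rho across genes, which are not independent replicates, was 0.952 for each pair and did not single out control 2 and 4. Of the 9456 genes, 343 (3.63%) differed by more than 2-fold between control 1 and 2, 268 (2.83%) between control 1 and 4, and 150 (1.59%) between control 2 and 4.

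Differences between the libraries were shared by the members of some lists and not of others. For each protein-coding gene with a mean of at least 10 counts, the deviation of a library is its log2(CPM + 0.5) minus the mean of the 3 libraries, CPM being TMM-scaled counts on a common library size. Among 12359 such genes, control 1 was the lowest library for 33.3% and the highest for 34.6%, while control 2 was the highest for 37.3% and control 4 for 28.1%. Of 20 radial glia genes, control 1 was the lowest for 19, and control 2 was the highest for 15. Their median deviation was -0.66, 0.49 and 0.20 in control 1, 2 and 4. The summed TPM of the list was 1154, 2406 and 2118.

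Cell cycle lists had the same order. Of 26 genes of G2 and M phase, control 2 was the highest for 25 and control 1 the lowest for 25, with median deviations of -0.45, 0.54 and -0.05. Of 27 S-phase genes, control 2 was the highest for 23 and control 1 the lowest for 21. The ratio of the S-phase median to the G2 and M median was 1.89, 0.947 and 1.19. By summed TPM, S-phase genes were the higher list in every library (1435, 2154 and 1805 against 589, 1175 and 789). Of 14 Notch pathway genes with enough counts, control 2 was the highest for 8 and control 1 the lowest for 9. Over all genes with enough counts these shares were 37.3% and 33.3%.

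Neuronal lists went the other way in control 1 or stayed near the mean. Control 1 was the highest library for 15 of 18 pan-neuronal genes (median deviation 0.25, -0.15 and -0.13) and for 7 of 9 deep-layer genes (0.71, -0.32 and -0.10). The share over all genes with enough counts was 34.6%. Intermediate progenitor genes were spread evenly, with each library the highest for 4 of 12. For newborn neuron genes the median deviations were 0.01, 0.06 and -0.03, and for upper-layer genes -0.06, -0.04 and 0.09. The medians of these 3 lists lay within 0.1 of 0, while single members varied more, such as *Hes6* with 77.5, 53.1 and 39.6 TPM and *Neurod1* with 214, 307 and 172 TPM. Cytosolic ribosomal protein genes were highest in control 4 for 58 of 82 (28.1% over all such genes), by a median deviation of 0.07.

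Control 1 was also the lowest library for most members of some other lists, against 33.3% of all genes with enough counts. Microglia genes were lowest in control 1 for 8 of 9 and highest in control 2 for 9 of 9 (median deviation -0.70, 0.60 and 0.07). Erythroid genes were lowest in control 1 for 6 of 6 and highest in control 2 for 5 of 6 (-1.21, 1.30 and -0.06). Over all such genes control 2 was the highest for 37.3%. Mitochondrially encoded genes were lowest in control 1 for 7 of 7, with summed TPM of 10390, 15821 and 14413, and 5 of 13 such genes are listed at 0 in every library. Immediate early genes, which respond to stimulation and to dissociation, were lowest in control 1 for 7 of 11, with *Fos* at 87.4, 193 and 113 TPM but *Ier2* at 33.0, 11.7 and 11.4 TPM. The part of these other differences in those of the radial glia, cell cycle and neuronal lists was not tested.

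**Figure D4:**
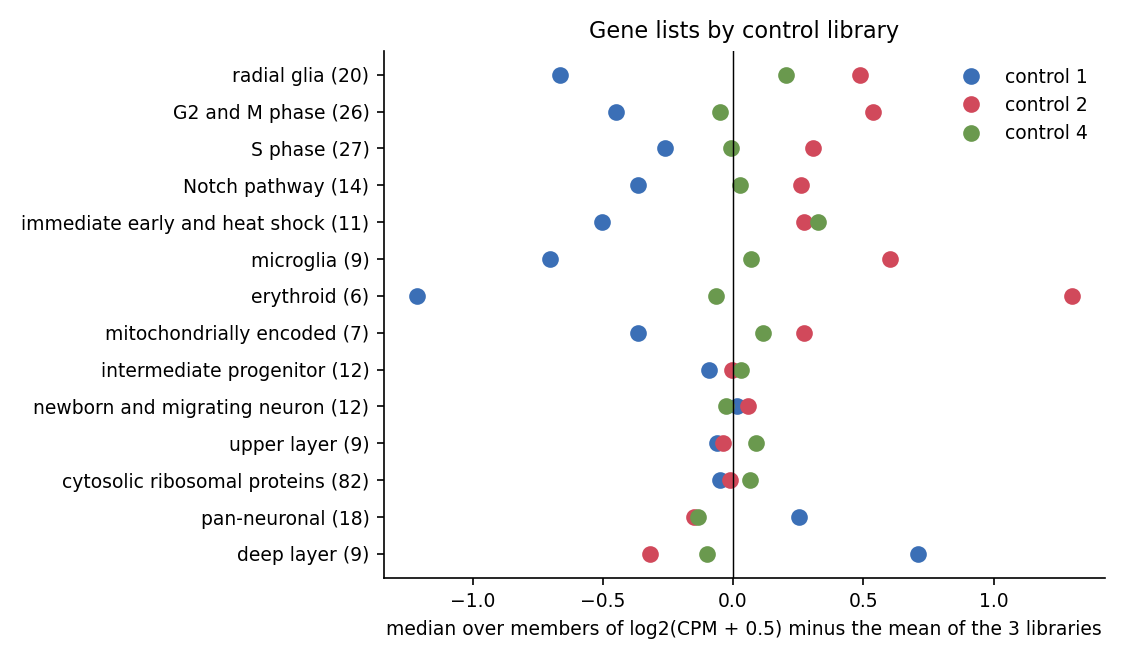
Median over list members of the deviation of each control library from the mean of the 3 libraries, in log2(CPM + 0.5), with the number of genes in brackets. Control 1 lies lowest and control 2 highest for radial glia, cell cycle, microglia and erythroid lists, control 1 lies highest for pan-neuronal and deep-layer lists, and intermediate progenitor, newborn neuron and upper-layer lists lie near 0.

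The embryos behind the libraries also differed in sex. Summed counts of the 4 Y-linked genes *Ddx3y*, *Eif2s3y*, *Kdm5d* and *Uty* were 2157, 0 and 2516 in control 1, 2 and 4. *Xist*, the RNA that inactivates an X chromosome in females, had 77, 794 and 21 counts, so that its CPM in control 1 and 4 was 10.5% and 3.03% of that in control 2. Control 2 therefore had no detected transcript of male cells, at a floor of 3 counts or 0.240 CPM, and the other libraries held male cells together with some *Xist* reads. Control 2 was also the library with the highest summed TPM of the radial glia and cell cycle lists. The radial glia median was highest in control 4 (40.5 TPM, against 38.5 TPM in control 2). Whether sex has a part in these differences was not tested.

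The genes that varied most beyond counting error were of several kinds. All 4 Y-linked genes were among the highest 10 by extra variance, from *Kdm5d* (288, 0 and 426 counts) to *Ddx3y* (797, 0 and 874 counts). *Cox5a*, a subunit of cytochrome c oxidase, was first with 387, 105 and 28 counts, and *Cyc1*, the cytochrome c1 gene of the respiratory chain, was in place 10 with 899, 307 and 175 counts. *Mc4r*, the melanocortin receptor gene, had 386, 45 and 79 counts and the glycine receptor subunit *Glra2* had 165, 26 and 59 counts. The chromatin gene *Dpf3* had 114, 28 and 25 counts, and *Nr2f2*, an orphan nuclear receptor of caudal and ventral telencephalon, had 237, 79 and 42 counts. The 6 genes that are not Y-linked were all highest in control 1, against 34.6% of all protein-coding genes with enough counts. They were picked for their variance, and the order of the other libraries was not the same for all. *Cox5a*, *Cyc1* and *Nr2f2* were lowest in control 4, whereas *Mc4r* and *Glra2* were not. Any link with the deep-layer list was not tested.

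A different property of the genes followed their level, the sequence ahead of the start site. RefSeq promoter windows on GRCm38.p6 were found for 16188 of the protein-coding genes, with 19799 windows of 250 bases. The median number of CpG dinucleotides was 17 for genes with a mean of 1000 TPM or more, 16 from 100 to 1000 TPM and 17 from 10 to 100 TPM. It was 13 from 1 to 10 TPM, 4 under 1 TPM and 2 for genes without a count. The medians thus differed between genes under and over 1 TPM and did not rise further from 10 TPM on.

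The letters GGGCGG and TATAAA also differed between genes under and over 1 TPM. GGGCGG, on either strand, was in 49.4%, 57.5%, 59.2% and 55.0% of windows from the highest class to that of 1 to 10 TPM. It was in 29.3% of windows under 1 TPM and in 8.62% of windows of genes without a count, against 44.6% of all windows. TATAAA, the letters of the TATA box, was in 10.3% of windows in the highest class and 5.56% at 10 to 100 TPM. It was in 27.3% of windows of genes without a count, against 11.0% of all windows. CCAAT showed no such division, between 33.1% and 44.8% in the 6 classes. CAGATG, an E-box of the kind bound by proneural bHLH factors, was in 10.3% of windows in the highest class. It was in 17.2% of windows of genes without a count, against 12.1% of all windows. The windows differ in base composition between classes, which alone changes how often such letters occur, and the highest class holds 87 windows.

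**Figure D5:**
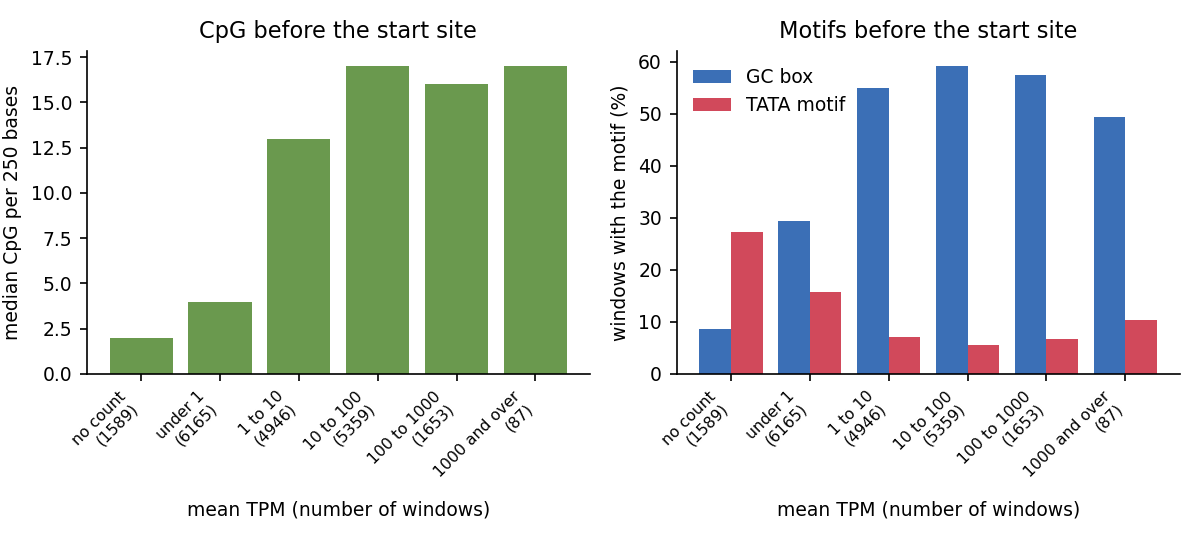
Median number of CpG dinucleotides in the 250 bases ahead of the RefSeq start (left) and percentage of windows with a GC box or a TATA motif on either strand (right), by mean TPM of the gene in the control libraries, with the number of windows in brackets. CpG and GC box are low and the TATA motif high in the classes under 1 TPM and without a count.

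Outside protein-coding genes, which took 97.8%, 97.0% and 97.4% of counts, the highest level was that of *Gm23935*, a miRNA gene model of 57 bases with 4542 ± 541 TPM, which is uncertain for so short a model. Long intergenic RNAs took 0.869%, 1.46% and 1.08% of counts. *Malat1*, a nuclear RNA, had 1855, 3774 and 2108 TPM, highest in control 2. *Gm15564*, annotated as antisense, had 2239.7 ± 257 TPM, the noncoding *Gm3764* had 1851 ± 513 TPM, and the mitochondrial ribosomal RNA *mt-Rnr2* had 2319.8 TPM. Reads were primed on poly-A, so RNAs without a poly-A tail are not represented by their true levels.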

How the data were processed

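Sorted High RFP cells were profiled by the authors from poly-dT primed, PCR-amplified cDNA with single-end reads. Only the 3 control libraries were analysed, grouped by title. The titles number them 1, 2 and 4 and the descriptions number the last one 3. Columns of the 4 Sox9-labelled libraries were not used. Gene lists and the rule for named genes were chosen with earlier results of these data known.

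The authors trimmed adapters with cutadapt and aligned reads to mm10 (GRCm38) with STAR 2.5.2b, after bcl2fastq 2.17.1.14 per the submitters' processing notes. Counts were deposited as whole numbers for each Ensembl gene, not normalized. The program that counted reads, and whether it used strand, are not given in the sources used here, so reads of overlapping and antisense genes cannot be told apart. The authors also deposited FPKM values. For 5497 genes the length linking counts to FPKM was computed, and it lay within 2% of the whole gene span for 91.8% and within 2% of the exonic length for 1.76%. At the median the span exceeded the exonic length 4.91-fold. TPM were therefore computed from counts over the union of exons in GENCODE M21 (GRCm38), in which 36345 of 38124 genes were found by identifier, and FPKM served as an alternative. Among 14 same-strand pairs of a gene nested in a host gene, the host had fewer mean counts in 10.

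Libraries were scaled with TMM (factors 0.994, 0.967 and 1.04) and dispersion was estimated with edgeR 4.0.16 in R 4.3.3, without a test. Extra variance is the squared CV minus its counting part, among genes whose mean reached 50 normalized counts, and was tested on simulated data. DESeq2 1.42.0 served as an alternative. Summaries were made in Python 3.11.15 (scipy 1.17.1, pandas 2.3.3, numpy 2.4.6) and figures with matplotlib 3.10.9.

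Genes named were the 5 markers, the 20 protein-coding genes with the highest mean TPM, the 3 highest of each list, the 10 with the largest extra variance, *Btg2*, *Sox9*, and defining markers at 0 to 3 counts of cell types that were not detected. Some genes covered by this rule are not reported here. Other members are named as examples and were chosen after their values were seen. *Ahsp* and *Lhfpl3* were on lists but not in the count table. Ribosomal protein genes were matched by symbol, pseudogene-like copies and 1 binding partner included. Alternatives were another gene length, FPKM, other thresholds, filters, scalings and list summaries, and each library left out in turn.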

Additional observations from a re-analysis of the deposited data

How the results depend on the processing

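Mean log2 ratios of list medians depended on the gene length and on how a list was summarised. For pan-neuronal over intermediate progenitor genes (2.13), the longest transcript gave 2.42, summed TPM 3.69, members with at least 10 counts 1.28, mean log2(TPM + 1) 2.29, and the deposited FPKM -0.60, a turn of sign. The FPKM are scaled by gene span, which differs from exonic length by construction. Intermediate progenitor over radial glia (0.51) became 1.37 with members of at least 10 counts and 1.88 with FPKM, and turned to -0.45 with summed TPM, in which *Fabp7* weighs most. Newborn over pan-neuronal genes (-0.68) became -1.15 with the longest transcript, -1.08 with summed TPM and -1.18 with mean log2(TPM + 1). Upper over deep layer (2.37) became 3.49 with FPKM, and S phase over G2 and M phase (0.37) became 1.12 with summed TPM. The cause of these other shifts was not tested.

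The number of detected genes was 4993 at 1 FPKM and 6408 at 10 TPM, against 14887 at 0.1 TPM. The share of the highest 100 genes was 31.5% with the longest transcript, 47.6% with FPKM and 32.6% scaled over nuclear protein-coding genes. The median CV was 26.1% without a filter, where more genes are near the counting limit, and DESeq2's median gene-wise dispersion gave a coefficient of 11.1% in place of 17.6%. On detected genes alone the mean Jensen-Shannon distance was 0.0760 and Spearman's rho 0.978, and rho was 0.937 with FPKM.

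With each library left out, detected genes ranged from 11128 to 11291, the biological coefficient from 15.8% to 19.7%, the log2 ratio of intermediate progenitor to radial glia from 0.0082 to 0.84 and the log2 ratio of S phase to G2 and M phase from 0.088 (without control 1) to 0.59. No paired analysis was possible because the control libraries form 1 group and no result comes from a test. Values under about 10 counts carry large counting error.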

Other observations

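A list of areal patterning genes, put together after the values were seen, is given here by 3 of its members. Its genes mark position along the axes of the cortical sheet, and 10 of 12 were detected. *Nr2f1*, a nuclear receptor with a high caudal level, had 49.1, 75.5 and 29.4 TPM in control 1, 2 and 4. Its relative *Nr2f2* had 8.21, 2.46 and 1.57 TPM. *Lmo3* had 42.3, 21.6 and 23.9 TPM. These genes, picked for their variation, did not share an order of the libraries, with control 2 the highest for the first and control 1 for the others. Over the 11 members with enough counts, control 1, 2 and 4 were the highest for 4, 4 and 3, near the shares over all genes.

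*Map1b*, a microtubule-associated protein of growing axons, also varied strongly, with 2495, 1549 and 1071 TPM and a CV of 42.7%.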
